A study of Rattus norvegicus with 5 samples.

Results

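The signals of 7 receptor genes were followed in INS-1, an insulin-secreting line grown out of a rat beta cell tumour. The genes were the incretin receptors Gipr and Glp1r, the glucagon receptor Gcgr, the adenosine receptor Adora2b, the receptor partner Ramp1, the prolactin receptor Prlr and the atypical chemokine receptor Ackr3. All probe sets that the array annotation assigns to these symbols were taken, which gave 9 of 15866 probe sets, 3 of them for Prlr, for 7 of 10411 named genes. The genes were picked as receptors of interest in beta cells, and several were chosen by their signals on these same arrays because they differed between clones. Their values are therefore described here without a test.

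RNA came from 4 clones and from the parental INS-1 line, with 1 array each, 5 in all. Clones 5-3.14 and 5-3.19 make up set 5-3, and clones 1-1.2 and 1-1.16 make up set 1-1. The labels call each clone FLP-In T-REx, the name of a system for inserting genes. Cells of this system carry an FRT site, where Flp recombinase can insert a gene. They also carry the tetracycline repressor, which is meant to keep an inserted gene silent in the absence of tetracycline. That each clone carries both is read from this name. The parental line carries neither as far as its label says, the labels of these arrays name no inserted gene, and each clone is a single clonal line. Nothing in the labels tells what the set names stand for or whether the clones of one set are related. Signals are on an arbitrary linear scale on which the trimmed mean of every array is about 1000, and they can be compared between arrays for 1 probe set but not between probe sets. Ratios given below are of plain signals, and log2 differences and folds are of the signal plus an offset of 21.8, a scale that understates the change of dim genes.

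Gipr, Glp1r and Gcgr belong to the glucagon family of G protein-coupled receptors. They act through the stimulatory G protein and adenylyl cyclase to raise cAMP, which strengthens glucose-driven insulin secretion in beta cells. Adora2b also couples to that G protein, and its ligand adenosine is formed from ATP outside the cell. Ramp1 is a single-pass membrane protein that pairs with the calcitonin receptor to form an amylin receptor and with the calcitonin receptor-like receptor to form the receptor of calcitonin gene-related peptide. Prlr is a cytokine receptor that signals through JAK2 and STAT5 and is known for its part in beta cell growth in pregnancy. Ackr3 binds the chemokine CXCL12 and works through arrestins rather than G proteins.

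The arrays carried beta cell genes, some of them unevenly. All 14 measured genes of a beta cell marker list were bright enough to test, 12 of them with a lower mean in the clones. Every clone read lower for 4 (19.7% of all tested probe sets) and higher for 0 (18.4% of all). At least 2-fold lower in every clone were 0 (0.431% of all). The secretory granule gene Chga read 18589 to 24607 across the clones and 24082 in the parental line. Of the insulin genes, Ins1 was even, at 34381 to 42217 across the clones and 37360 in the parental line, and was the brightest signal of every array. Ins2 was uneven. It read 3953 and 4303 in the 5-3 clones, 30224 in 1-1.2 and 5381 in 1-1.16, and 28816 in the parental line. Pcsk2, a prohormone convertase gene, read 7512 and 8705, 3331 and 1974, and 9130 in the order of 5-3 clones, 1-1 clones and parental line. Of 7 measured markers of alpha, delta and PP cells 2 could be tested, Ttr and the alpha cell gene Gcg, which reached 24434 and is described with the ligands. None of 6 leukocyte and 4 endothelial markers reached that brightness, and 1 of 7 fibroblast markers did. The summed leukocyte signal was 370 to 480 across the clones and 601 in the parental line, the summed endothelial signal was 123 to 221 across the clones and 177 in the parental line, and the summed fibroblast signal was 1436 to 2605 across the clones and 1603 in the parental line. The median signal per array was 342 to 372. Poly(A) control RNAs, which are mixed in before labelling, were brightest on the parental array for 24 of 27 probe sets, with a median log2 difference of −0.53 for the clones minus the parental array. Hybridisation controls were dimmest on it for 15 of 18, with a median of 0.32. With 1 parental array, features of that array and of the line cannot be told apart.

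Among the 7 genes, Adora2b and Ramp1 read lower in every clone than in the parental line by a wide margin, and Ackr3 read higher in every clone. Gipr was lower in every clone but much closer to the parental signal in set 5-3 than in set 1-1. Prlr read higher in every clone by 2 of its 3 probe sets, and Glp1r had the narrowest range. For Gcgr, 1 clone, 5-3.14, stood below all other arrays.

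**Figure D1:**
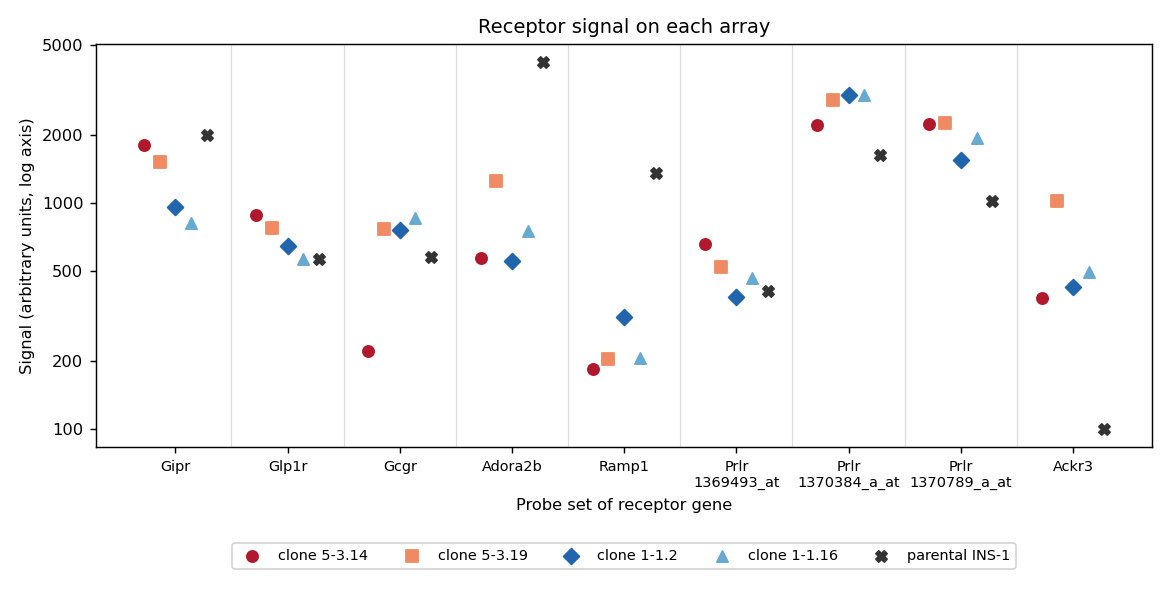
Signal (arbitrary units, log axis) of the 9 probe sets on each of the 5 arrays, 1 point per array. The parental point lies above all clones for Gipr, Adora2b and Ramp1 and below all clones for Ackr3 and 2 Prlr probe sets, and clone 5-3.14 is lowest for Gcgr at 222.

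Gipr, the receptor of glucose-dependent insulinotropic polypeptide (GIP), read 1793 in 5-3.14 and 1522 in 5-3.19, 962 in 1-1.2 and 817 in 1-1.16, and 2000.1 in the parental line. The sets did not overlap, and both lay below the parental array. From highest to lowest the order was parental, 5-3.14, 5-3.19, 1-1.2 and 1-1.16. The parental line and 5-3.14 differed by a ratio of 1.12, less than the ratio of 1.18 between the 5-3 clones, so these neighbours could not be separated. The step from 5-3.19 to 1-1.2 was a ratio of 1.58. Means were 1658 ± 192 in set 5-3 and 890 ± 102 in set 1-1 (SD, n = 2 each), a log2 difference of 0.88. Across all 4 clones the log2 difference from the parental line was −0.71 ± 0.53 (SD of the clones, n = 4). In a bulk sample, fewer cells carrying a transcript and less of it per cell cannot be told apart.

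Glp1r, the receptor of glucagon-like peptide 1, read 886 and 776 in the 5-3 clones, 644 and 562 in the 1-1 clones, against 567 in the parental line. The 5-3 clones were the highest pair, and 1-1.16 and the parental line differed by a ratio of 1.01. The highest and the lowest array were 1.56-fold apart, the smallest range of the 9 probe sets. The set difference was 0.45 on the log2 scale, and the step between the sets, a ratio of 1.21, was only slightly larger than the ratio of 1.14 between the 5-3 clones. Gipr and Glp1r thus had their sets in the same order, with the larger separation at Gipr, while the parental line was the highest array for Gipr and next to lowest for Glp1r.

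Gcgr, the glucagon receptor, read 222 in 5-3.14 and 765 in 5-3.19, 755 in 1-1.2 and 857 in 1-1.16, and 577 in the parental line. Clone 5-3.14 lay below the next lowest array, the parental line, by a ratio of 2.60, while the other 3 clones were above it. A clone 5-3.14 signal at least 2-fold below every other array was found for 1.11% of the 9520 probe sets bright enough to test. Counting any clone and either direction, 2 of the 9 probe sets (Gcgr, and Ackr3 in 5-3.19) had 1 clone at least 2-fold from every other array, against 2.93% of those tested. The 5-3 clones differed from each other by 3.23-fold, so the set difference of −0.92 was within the spread between them, and without 5-3.14 it was −0.07. The mean over the 4 clones differed from the parental line by 0.01 ± 0.87 (log2, SD, n = 4), and its sign turned in 4 of 9 alternative settings.

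The ligands of these receptors were uneven too. Gcg, which encodes the precursor of both glucagon and glucagon-like peptide 1, read 20549.5 and 24434 in the 5-3 clones, 2064 in 1-1.2 and 17772 in 1-1.16, and 6874.5 in the parental line. Clone 1-1.2 alone was below the parental signal. The set difference was 1.88 ± 0.86 (log2, SE), which did not pass limma's test (adjusted p = 0.382). Without 1-1.16 it passed, in a fit where the lone clone 1-1.2 stands for its set. Gip, the precursor of the GIP hormone, read 17.4 and 63.8 in the 5-3 clones, 3196 in 1-1.2 and 52.1 in 1-1.16, and 85.7 in the parental line. Its only probe set was bright on clone 1-1.2 alone, and its mean level was below the brightness limit for testing. Gip was singled out after its values were seen. The clone with the brightest Gip signal was therefore the one with the dimmest Gcg signal, and its Gipr signal of 962 lay between those of the other clones. Of the 17 other genes of the glucagon family list that were measured, 3 could be tested, Gcg, Sct and Adcyap1r1, and limma called 0 in either comparison. Adcyap1r1, the receptor of pituitary adenylate cyclase-activating polypeptide, read 67.1 and 692 in the 5-3 clones, 147 and 270 in the 1-1 clones, against 691 in the parental line. Sct, the secretin gene, read 1176 and 278.5, 807 and 753, and 244 in the same order of arrays.

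**Figure D2:**
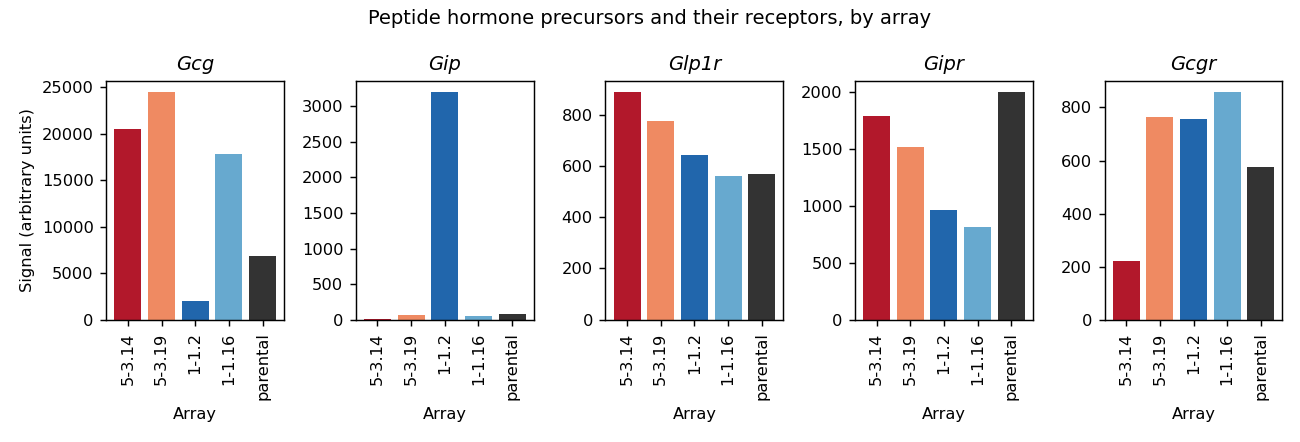
Signal (arbitrary units, linear axes from 0) of 2 hormone precursor genes and their 3 receptors, 1 bar per array and a separate axis per gene. Gip is bright on clone 1-1.2 alone (3196), where Gcg is lowest (2064), and Gcgr is lowest on 5-3.14.

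Adora2b, a receptor that responds to high adenosine levels, read 573 and 1245 in the 5-3 clones, 554 and 750 in the 1-1 clones, against 4182 in the parental line. The highest clone, 5-3.19, was still below the parental signal by a ratio of 3.36. The log2 difference of the 4 clones from the parental line was −2.47 ± 0.53 (SD, n = 4), and single clones ranged from −1.73 in 5-3.19 to −2.87 in 1-1.2. The sets overlapped, with 2.13-fold between the 5-3 clones, and the set difference of 0.38 turned to −0.17 without 5-3.19.

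The rest of the adenosine system did not share one direction. Of 15 other measured genes 9 were tested, 5 with a higher and 4 with a lower mean in the clones, with a median log2 difference of 0.02 beside 0.01 over all tested probe sets. Nt5e, the ecto-enzyme that makes adenosine from AMP, read 418 and 439 in the 5-3 clones, 507 and 619 in the 1-1 clones, against 910.5 in the parental line. Entpd5, a nucleoside diphosphatase, read 518 and 594, 416 and 440, and 1296 in the same order. Both were lower in all 4 clones (limma unadjusted p = 0.0270 for Nt5e and 0.00259 for Entpd5), and neither passed after Benjamini-Hochberg adjustment (adjusted p = 1.00 for each).

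Adora1, a receptor coupled to the inhibitory G protein, separated the sets instead. It read 244 and 429 in the 5-3 clones, 885 and 647 in the 1-1 clones, against 756 in the parental line, a set difference of −1.17 ± 0.33 (log2, SE; limma adjusted p = 0.189). A further Adora1 probe set read 113 and 84.6, 474 and 430, and 325 in that order, with a set difference of −1.98. Ada, which breaks adenosine down, read 206 and 123 for the 5-3 clones, 379 and 298 for the 1-1 clones, against 188 in the parental line (limma adjusted p = 0.240 between the sets). The purinergic receptor gene P2ry1 read 1170.0 in 5-3.14 and 183 to 422 on the other arrays. Adora2a, the other receptor of the stimulatory kind, read 110 to 197 across the clones and 197 in the parental line and was too dim to test.

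Ramp1 read 184 and 204.0 in the 5-3 clones, 313 and 206 in the 1-1 clones, against 1361 in the parental line. The parental signal was 4.35 times the highest clone, 1-1.2, and the other 3 clones lay between 184 and 206. Those 3 read close to the brightness limit for testing, a signal of about 194. The log2 difference of the clones from the parental line was −2.50 ± 0.31 (SD, n = 4). It was −2.22 with an offset 4 times larger and −2.59 with one 4 times smaller. Though the 5-3 clones both read below the 1-1 clones, 5-3.19 and 1-1.16 differed by a ratio of only 1.01.

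Of the receptors that Ramp1 pairs with, Calcr, the calcitonin receptor, was also dimmer in every clone. It read 79.7 and 24.6 in the 5-3 clones, 102 and 122 in the 1-1 clones, against 344 in the parental line, and its other probe set read 12.8 to 22.5 across the clones and 155 in the parental line. Both probe sets were below the brightness limit on average and were not tested, and Calcr was singled out after its values were seen. Calcrl, the calcitonin receptor-like receptor, read 91.2 to 137 across the clones and 92.3 in the parental line by its brighter probe set. The dimmer one read 119 and 62.5 in the 5-3 clones, 33.4 and 21.8 in the 1-1 clones, against 15.3 in the parental line, above it in every clone. Ramp2, a relative of Ramp1, read 1022 and 1673 in the 5-3 clones, 1145 and 1302 in the 1-1 clones, against 748 in the parental line, above the parental signal in every clone (limma unadjusted p = 0.0595, adjusted p = 1.00). The ligand gene Iapp, which encodes amylin, read 19160 to 33945 across the clones and 27899 in the parental line, on both sides of the parental signal. Of the 9 other measured genes of this list 3 were tested and limma called 0.

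Ackr3 read 379 and 1021 in the 5-3 clones, 424 and 495 in the 1-1 clones, against 99.9 in the parental line. Every clone was at least 3.80 times the parental signal, and 5-3.19 was 2.06 times the next highest clone. The log2 difference from the parental line was 2.20 ± 0.62 (SD, n = 4). The parental signal was dim, so the size depends on the offset, with 1.74 for an offset 4 times larger and 2.36 for one 4 times smaller. The set difference of 0.43 turned to −0.26 without 5-3.19. Its ligand gene Cxcl12 read 298.5 and 107 in the 5-3 clones, 244 and 153 in the 1-1 clones, against 277 in the parental line, with the values of the sets overlapping. Its other probe sets, both too dim to test, differed from this, with log2 differences of the clones from the parental line of 0.70 and 0.06, against −0.51 here, and set differences of 0.71 and 0.59. Cxcr4, the G protein-coupled receptor of the same ligand, read 60.9 to 165 across the clones and 121 in the parental line, too dim to test. Arrb2, one of the arrestins, read 662 and 472, 491 and 563, and 768 in the same order, lower in every clone (limma adjusted p = 1.00). Of 11 measured genes of the CXCL12 list 5 were tested and limma called 0.

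Adora2b, Ramp1 and Ackr3 were the 3 of 9 probe sets at least 2-fold from the parental signal in all 4 clones, 2 lower and 1 higher. Over all tested probe sets the share was 0.651%, with 0.431% lower and 0.221% higher. All 4 clones lay on one side of the parental array for 6 of the 9, against 38.1% of all tested probe sets, with 3 lower (19.7% of all) and 3 higher (18.4%). The range over the 5 arrays reached 2-fold for 6 of the 9, against 25.6%. These counts describe genes chosen partly for such differences. The count of 3 was the same under the other scalings and offsets. It stayed at 3 with each clone left out, where it could not have fallen. Poly(A) controls differed by −0.53 and hybridisation controls by 0.32 between the same arrays, and their part in these differences was not tested.

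**Figure D3:**
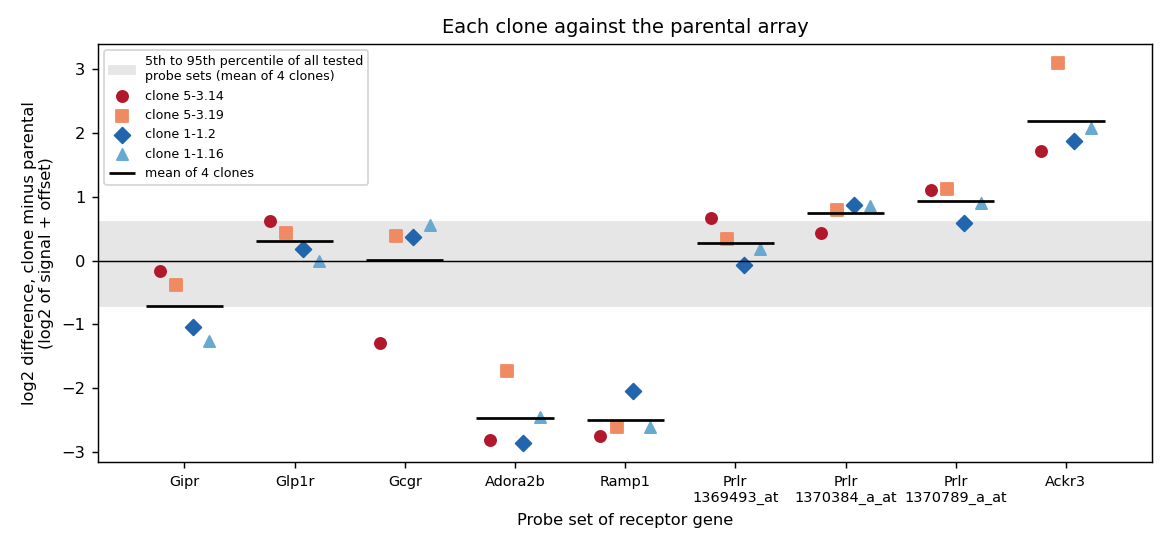
Log2 difference of each clone from the parental array for the 9 probe sets, with a bar for the mean of 4 clones and a grey band for the 5th to 95th percentile of all tested probe sets (−0.72 to 0.60, mean of 4 clones). Adora2b, Ramp1 and Ackr3 lie outside the band in every clone, while the Gcgr mean near 0 joins 3 clones above it and 5-3.14 at −1.30.

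The promoters of these 3 genes are shown because the genes stood farthest from the parental line. The 250 bases before the annotated start were read from RefSeq (GRCr8) and searched on both strands for the GC box GGGCGG, the TATA motif TATAAA, the E-box CACGTG, the cAMP response element TGACGTCA and its core TGACG, which lies within the full element. Capitals mark GGGCGG or its reverse complement and TATAAA.
Adora2b, chr10:47439462-47439711, + strand: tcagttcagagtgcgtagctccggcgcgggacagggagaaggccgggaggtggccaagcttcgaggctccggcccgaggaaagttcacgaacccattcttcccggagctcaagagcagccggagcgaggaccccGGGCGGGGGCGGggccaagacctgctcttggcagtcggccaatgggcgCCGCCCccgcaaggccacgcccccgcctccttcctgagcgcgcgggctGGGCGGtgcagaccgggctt
Ramp1, chr9:99212866-99213115, + strand: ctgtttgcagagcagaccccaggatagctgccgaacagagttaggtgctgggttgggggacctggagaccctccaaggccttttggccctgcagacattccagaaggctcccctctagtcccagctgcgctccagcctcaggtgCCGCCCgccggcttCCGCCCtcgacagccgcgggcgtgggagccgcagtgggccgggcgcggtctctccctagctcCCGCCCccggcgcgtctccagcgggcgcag
Ackr3, chr9:98247104-98247353, + strand: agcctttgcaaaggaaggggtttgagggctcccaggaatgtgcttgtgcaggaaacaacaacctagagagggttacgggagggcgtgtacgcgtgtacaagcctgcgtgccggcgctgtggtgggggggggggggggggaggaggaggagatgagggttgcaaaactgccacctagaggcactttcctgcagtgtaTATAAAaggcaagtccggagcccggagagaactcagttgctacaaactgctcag

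Adora2b and Ramp1 held 4 and 3 matches of GGGCGG and no TATAAA, in windows with 71.2% and 70.0% G and C. Ackr3 held no GGGCGG and 1 TATAAA that begins 54 bases before the start, in a window with 58.0% G and C. The median window held 51.2%. GGGCGG was found in 30.5% of 33469 such windows and TATAAA in 12.9%. Glp1r also held 4 matches of GGGCGG, Gcgr held 2 in 1 of its windows, and Prlr held none. None of the 8 windows of 6 matched member genes held TGACG, which 18.2% of all windows held, or CACGTG (5.59%), or the full element (1.59%). These are matches of letters and not binding sites, and a link between them and the signals was not tested.

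Prlr was covered by 3 probe sets, and those ending in _a_at are designed to match more than 1 transcript form of a gene. Probe set 1369493_at read 656 and 518 in the 5-3 clones, 385 and 466 in the 1-1 clones, against 406 in the parental line. Its sets did not overlap, and the parental line lay between the 1-1 clones. Probe set 1370789_a_at read 2233 and 2250.3 in the 5-3 clones, 1542 and 1930.1 in the 1-1 clones, against 1022 in the parental line, with every clone above the parental line and set 5-3 above set 1-1. Probe set 1370384_a_at read 2212 and 2840.5, 3011 and 2993, and 1635 in the same order, again above the parental line in every clone but with set 5-3 below set 1-1. The log2 differences of the clones from the parental line were 0.28 ± 0.31, 0.93 ± 0.25 and 0.74 ± 0.21 (SD, n = 4 each), and the set differences were 0.44, 0.37 and −0.26. The probe sets therefore shared a higher mean in the clones but disagreed on the order of the sets. Which transcript forms each detects is not settled by the annotation used here.

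Of 17 measured genes of the prolactin and growth hormone receptor list 13 were tested, 5 with a higher and 8 with a lower mean in the clones, and limma called 0 in either comparison. Socs2, a feedback inhibitor induced by STAT5, read 722 and 402 in the 5-3 clones, 415 and 469 in the 1-1 clones, against 325 in the parental line. Cish, another such inhibitor, read 452 and 228, 258 and 211, and 164 in the same order. These were the 2 tested genes of the list above the parental signal in every clone (limma adjusted p = 1.00 for each), and 4, Stat3, Men1, Ccnd2 and Cdkn1b, were below it in every clone. Over all tested probe sets 18.4% were above and 19.7% below it in every clone. The kinase gene Jak2 read 306 to 609 across the clones and 427 in the parental line, on both sides of it. Ghr, the growth hormone receptor, read 2254 and 1676 in the 5-3 clones, 640 and 1106 in the 1-1 clones, against 970.5 in the parental line. The difference between its sets was 1.19 ± 0.32 (log2, SE; limma adjusted p = 0.173), and 1.30 by the other probe set. The cyclin gene Ccnd1 read 126 and 308, 238 and 787, and 359, and the cell cycle inhibitor gene Cdkn1b read 3811 and 1677, 4358 and 3319, and 5592, in the order of 5-3 clones, 1-1 clones and parental line.

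The clone sets did not overlap at 6 of the 9 probe sets, against 46.6% of all tested probe sets. Set 5-3 was higher at Gipr, Glp1r and 2 of the Prlr probe sets (22.1% of all) and lower at Ramp1 and the third Prlr probe set (24.5% of all). The differences ranged from −0.92 for Gcgr, whose sets overlapped, to 0.88 for Gipr, where the 5th to 95th percentile of all tested probe sets was −0.75 to 0.84.

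Downstream of the receptors that act through cAMP, 23 of 35 measured genes for its production, sensing and breakdown were tested. In the clones 17 had a higher and 6 a lower mean, with a median log2 difference of 0.15 beside 0.01 over all tested probe sets. Every clone read higher for 4 (18.4% of all tested probe sets) and lower for 3 (19.7% of all), and limma called 0. Gnas, the stimulatory G protein subunit gene, was bright and even, at 20993.5 to 25342 across the clones and 22395 in the parental line. The inhibitors of protein kinase A Pkia and Pkib read higher in every clone by their brightest probe sets. Pkib read 1572 and 1411 in the 5-3 clones, 1677 and 2401 in the 1-1 clones, against 672 in the parental line, a log2 difference of 1.34 that its other probe set gave as 1.40. Pkia read 1385 and 840.1, 866 and 1386, and 457 in the same order, with 1.21 here and 0.70 and 1.23 by its other probe sets. Their unadjusted p was 0.00585 and 0.0153 by limma and the adjusted p was 1.00 for each. Pde3b, a phosphodiesterase that lowers cAMP, read 2358 and 1282, 2959 and 1717, and 3996, lower in every clone (limma adjusted p = 1.00). Pde1c, another phosphodiesterase, read 421 and 456, 138 and 275, and 210.1 (limma adjusted p = 0.224 between the sets). Gnao1, an inhibitory G protein subunit gene, read 817 and 1015 in the 5-3 clones, 330 and 308 in the 1-1 clones, against 421 in the parental line, with the parental line between the sets in level (log2 set difference 1.45 ± 0.24, SE; limma adjusted p = 0.0692).

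Of 21 measured genes that CREB is known to switch on when cAMP rises, 13 were tested. A higher mean in the clones was found for 11 of these. Every clone read higher for 7 (18.4% of all tested probe sets) and lower for 0 (19.7% of all). Members too dim to test went both ways, with log2 differences from −1.065 to 1.062. The median log2 difference of the tested members was 0.53, beside 0.01 over all tested probe sets. None passed by limma, and 1 member had an unadjusted p under 0.05 (3.67% of all tested probe sets did). That member was Junb, an immediate early transcription factor gene, which read 223 and 515 in the 5-3 clones, 260.0 and 311 in the 1-1 clones, against 77.4 in the parental line. Between the sets the members split, 6 higher and 7 lower in set 5-3. The orphan nuclear receptor gene Nr4a1 read 245 and 673 in the 5-3 clones, 1015 and 1135 in the 1-1 clones, against 480 in the parental line, and Cebpb, a transcription factor gene, read 729 and 743, 1259 and 2200.4, and 661 in the same order. Their set differences were −1.35 and −1.15 (limma adjusted p = 0.221 and 0.166). Nr4a3, a relative of Nr4a1, read 162 and 137, 1873 and 453, and 116.5, with its high signal in clone 1-1.2 (limma adjusted p = 0.149). Its other probe set, too dim to test, read 117 and 79.0, 284 and 41.5, and 37.7. The set difference there was −0.24, against −2.47 here.

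Other hormone and transmitter receptors of beta cells also differed between the arrays. Of 38 measured, 13 were tested, 6 with a higher and 7 with a lower mean in the clones, and limma called 0. Sstr3, a somatostatin receptor, read 1033 and 982 in the 5-3 clones, 410 and 344 in the 1-1 clones, against 1526 in the parental line, the same order of arrays as for Gipr. Its set difference was 1.37 ± 0.23 (log2, SE; limma adjusted p = 0.0692). The calcium-sensing receptor gene Casr read 615 and 1572, 246 and 106, and 1068 in the same order, a set difference of 2.44 ± 0.52 (limma adjusted p = 0.122). Oxtr, the oxytocin receptor, read 487 and 633 in the 5-3 clones, 137 and 322 in the 1-1 clones, against 238 in the parental line. Igf1r, the receptor of insulin-like growth factor 1, read 1296 and 1269, 2218 and 2047, and 423 in the same order, a log2 difference of the clones from the parental line of 1.91 (limma unadjusted p = 0.00183, adjusted p = 1.00). It was the gene of this list at least 2-fold above the parental signal in every clone, and its set difference was −0.72 (limma adjusted p = 0.200). Chrm3, a muscarinic acetylcholine receptor, had a set difference of 0.88 (limma adjusted p = 0.224).

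Counted once each, 82 of the 161 measured genes of the 8 signalling lists were tested. Between the clones and the parental line limma called 0 of them and 0% of all tested probe sets, and 6 had an unadjusted p under 0.05 (7.32%, against 3.67% of all tested probe sets). Between the sets limma called 0 of them and 0.42% of all tested probe sets, and 19 had an unadjusted p under 0.05 (23.2%, against 14.8%). With each clone left out in turn, 1 to 5 of them passed between the sets. These were Gnao1 and Casr without 5-3.14, Adora1, P2ry1, Nr4a1, Egr1 and Sstr3 without 5-3.19, Casr without 1-1.2, and Gcg and Nr4a3 without 1-1.16. Without 5-3.14 the share called was 2.44% of the list genes and 2.32% of all tested probe sets, and without 5-3.19 it was 6.10% and 2.35%. Without 1-1.2 it was 1.22% and 0.546%, and without 1-1.16 it was 2.44% and 0.525%. In each of these fits the measured spread came only from the set that kept both clones. The lone clone and the lone parental array were assumed to vary like that pair.

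**Figure D4:**
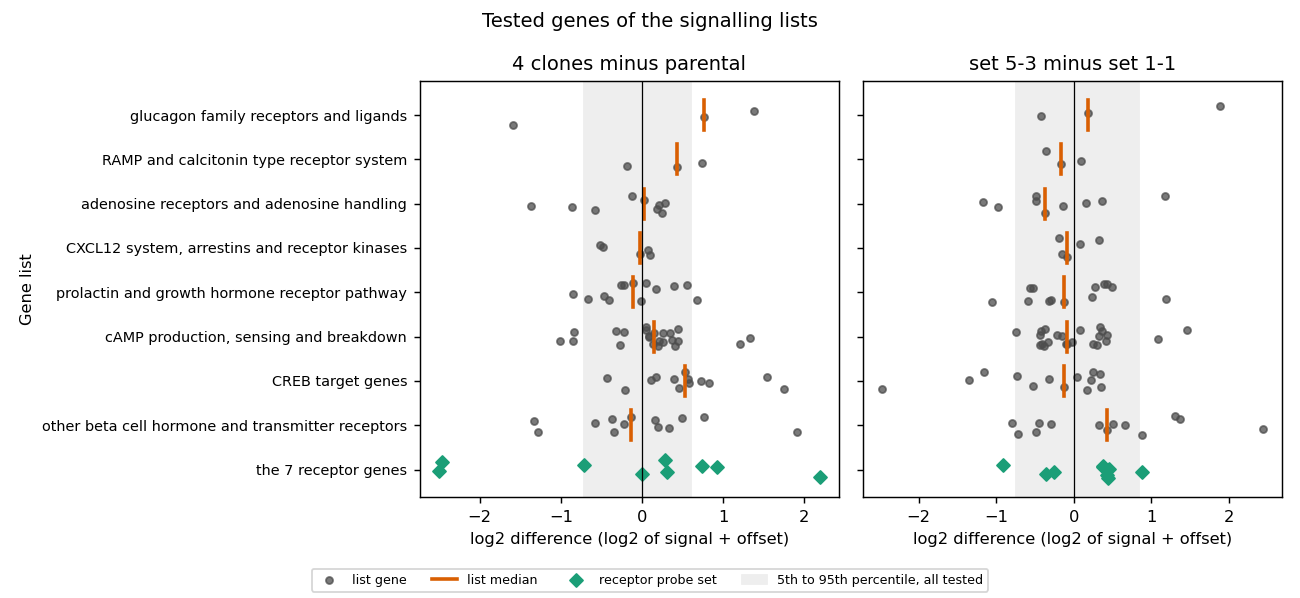
Log2 differences of the tested genes of 8 signalling lists (grey points, with orange bars for list medians) and of the 9 probe sets of the 7 receptor genes (green diamonds), for 4 clones minus parental on the left and set 5-3 minus set 1-1 on the right. The shaded bands give the 5th to 95th percentile of all tested probe sets, and the CREB target list has a median of 0.53 on the left.

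The genes whose profiles over the 5 arrays lay closest to each receptor were ranked by the root-mean-square difference of mean-centred log2 signals, with no test. Nedd4l, a ubiquitin ligase gene, was closest to Gipr at 0.05, followed by Cpn1 and C11h21orf91 at 0.08 each, where the median gene was at 0.57. Nedd4l read 1344 and 1148 in the 5-3 clones, 733 and 627 in the 1-1 clones, against 1395 in the parental line. Emc10 was closest to Glp1r at 0.02, followed by Rhoa and Pcnt at 0.05 and 0.06, with a median gene at 0.36. Dnajc1, Nup43 and Hspa13 shared the low signal of Gcgr in 5-3.14, at 0.10, 0.12 and 0.13 from it. Dnajc1 read 229 there and 553 to 991 on the other arrays.

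The widely ranging receptors had no such close match, on a measure that is not scaled for range and so grows with it. Gabrd, a GABA receptor subunit gene, and Crp came nearest to Adora2b, at 0.21 and 0.26, and Crabp1 followed at 0.42. Kctd12, Mpv17l and Hpgd were nearest to Ramp1, at 0.24, 0.29 and 0.30, and Junb, Ptpn13 and Abce1 to Ackr3, at 0.21, 0.41 and 0.49. For these 3 receptors the median gene was at 1.03 to 1.10. For Prlr, by its brightest probe set, Serpinb6a, Acat1 and Tor3a lay at 0.04, 0.09 and 0.09. Among the 7 genes themselves, Glp1r and Prlr probe set 1369493_at were the closest pair, at 0.15, and also had the narrowest ranges. Adora2b and Ramp1 were 0.55 apart.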

How the data were processed

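Total RNA of 4 INS-1 clones and the parental line was measured on single-colour arrays, 1 array each. The authors deposited linear signal intensities, 1 value for each probe set on each array, made with software not given in the sources used here. Trimmed means of the deposited values (2% left out at each end) were 1000.24 to 1000.28, so no further scaling was applied.

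Of 15923 probe sets, 57 controls were left out. Names came from the platform table, where 12783 probe sets had 1 symbol, 312 several and 2771 none. Of those with 1 symbol, 12748 matched the GRCr8 gene table. Values were taken as log2(signal + 21.8), the offset being the 10th percentile of positive signals. Probe sets at or above the 40th percentile of mean log2 level, a signal of about 194, were tested (9520, including all 9 receptor probe sets). limma 3.58.1 in R 4.3.3 (lmFit, eBayes with intensity trend, Benjamini-Hochberg threshold 0.05) compared the 4 clones with the parental array, and set 5-3 with set 1-1 in a fit with 3 groups. The lone parental array is assumed to vary like the clones. Nothing says that arrays of a set are more than separate clones, so p-values speak only of the spread among these clones. The fits were checked on simulated data. The number of arrays limits all precision.

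The receptor genes and the gene lists were chosen with earlier results of these data known. A list gene is represented by its brightest probe set. Of each list, up to 5 tested genes with the widest range over the arrays and all called genes were eligible to be named, with beta cell markers including Chga as a check of the cell type, and for likeness the 3 closest genes. Adora2a, Calcr, Calcrl, Cxcr4, Gip, Gnas and Jak2 fall outside this rule and were chosen after their values were seen. So do Stat3, Men1, Ccnd2, Slc29a2, Ptpn11, Adcy6 and Prkar1a, which were named for where their clones lay against the parental signal. Promoter windows came from RefSeq for 6 of the 7 genes. Alternatives covered scaling (median centring, quantile normalization, cyclic loess), the offset, the filter, the variance model, the grouping and leaving out each clone.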

Additional observations from a re-analysis of the deposited data

Results flagged for a closer look

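Among the 4 clones, Dixon's ratio of the gap to the range exceeded its limit at 4 of 45 probe sets examined. The limit is meant to flag about 1 in 20 by chance. That rate cannot be applied here, because several receptor genes were chosen for differences between these clones. Many of the list genes were named for a wide range over the same arrays. The ratios are therefore given as a description and not as a test. Gcgr in 5-3.14 had a ratio of 0.839, with 222 there and 755 to 857 in the other clones. Ramp1 in 1-1.2 had a ratio of 0.831, with 313 there and 184 to 206 in the others. P2ry1 in 5-3.14 had 0.844, with 1170.0 there and 183 to 337.5 in the others. Grk6, a receptor kinase gene, had 0.879 in 5-3.19, with 590 there and 749.5 to 771.5 in the others, but its other tested probe set read 297 there and 326 to 464 in the others, with 5-3.14 the distant clone. Of these, Ramp1 lay nearest to the limit.

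At 7 of the 82 tested genes of the signalling lists both clones of one set lay above the parental signal and both of the other below it (8.54%, against 12.1% of all tested probe sets). Of these, 3 were among the named genes, and the other 4 were Slc29a2, Ptpn11, Adcy6 and Prkar1a. The set difference, 5-3 minus 1-1, was 1.45 for Gnao1, −0.73 for Egr1 and 0.88 for Chrm3 on the log2 scale. limma did not call these differences (adjusted p = 0.0692, 0.441 and 0.224), and the other probe set of Chrm3 gave 0.15. Egr1 in 5-3.19 differed from the parental line by under 1 unit of signal (2145 against 2146).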

How the results depend on the processing

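Of the log2 differences between the clones and the parental line, 8 of 9 probe sets kept their sign under all 9 alternatives, the exception being Gcgr (−0.18 to 0.44). Between the sets 7 of 9 did, the exceptions being Adora2b (−0.17 to 0.93) and Ackr3 (−0.26 to 1.12). The count of 3 probe sets at least 2-fold from the parental line in all clones was the same under each of the 9. The sets did not overlap at 6 probe sets under each scaling and offset, and at 7 to 8 with a clone left out. Leaving out a clone can only keep or raise either count, so those settings do not check them.

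limma called 0 probe sets between the clones and the parental line under every alternative run, with 349 at an unadjusted p under 0.05 as reported. Between the sets it called 40, against 70 with median centring, 64 with the larger offset, 10 with no filter on dim probe sets, 12 with the filter at the 60th percentile and 50 to 224 with a clone left out; the cause was not tested. Of the signalling list genes 0 were called, and 1 to 5 with a clone left out. No paired analysis was possible because the labels give the clones no shared replicate numbers.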
